A study of Mus musculus with 14 samples.

Results

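The genes described here are 38 mouse genes of rod photoreceptors, or of rods and cones together, measured in libraries of the RPE (retinal pigment epithelium), a monolayer of pigmented cells that faces the photoreceptors. They were listed by name for their function: 10 are usually described as rod-restricted, 26 serve rods and cones or have further sites of expression, and 2 (Gnb1 and Unc119) are expressed in most tissues. All 38 were present among the 34452 mouse gene rows. The animals were rd1 mice of the FVB/N strain at postnatal day 20, in which a total loss of Pde6b function kills the rods early in life. One eye of each of 7 mice had received AAV-Best1-Nrf2 together with AAV-Best1-GFP, and the contralateral eye AAV-Best1-GFP only, by subretinal injection around birth. These eyes are named Nrf2 and control, with the number of the mouse. Adeno-associated virus (AAV) carries the transgene, and the human Best1 promoter was chosen to drive transcription of the Nrf2 sequence, a human cDNA, in the RPE. The Nrf2 vector was packaged in AAV8 and the GFP vector in another capsid, so the Nrf2 eye also received an additional vector. Each library was made from 1 eye: the retina was lifted away, the cleaned eyecup was placed in RNA Protect, and the material released into the fluid was collected as RPE.

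In a rod, light activates the visual pigment, which switches on transducin. Transducin in turn activates a phosphodiesterase that breaks down cyclic GMP, and the cyclic GMP-gated channels of the outer segment close. Arrestin, a receptor kinase and their partners then shut the cascade off, guanylate cyclases restore cyclic GMP, and a set of structural proteins keeps the discs of the outer segment in shape. The transcription factors Crx, Nrl and Nr2e3 establish and hold the rod programme. The RPE engulfs shed outer segment tips and returns retinoid to the photoreceptors, and it is not known as a site of the transduction cascade. In a bulk library, fewer cells of a type and less RNA per cell cannot be told apart.

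The 4 members past the significance threshold below were Nxnl1, Tulp1, Rbp3 and Rom1, and the 250 bases before the transcription start of each are printed here because these are the promoters of the genes that differed (RefSeq, build GRCm38.p6, written 5′ to 3′ on the strand of the gene). Capitals mark matches, on either strand, to 3 sets of letters: TAATCC (the core of Crx sites), TGCTGA (the core of Nrl sites) and TGACNNNGC (the core of the antioxidant response element that Nrf2 recognizes).
Nxnl1 (chr8:71566650-71566899, minus strand): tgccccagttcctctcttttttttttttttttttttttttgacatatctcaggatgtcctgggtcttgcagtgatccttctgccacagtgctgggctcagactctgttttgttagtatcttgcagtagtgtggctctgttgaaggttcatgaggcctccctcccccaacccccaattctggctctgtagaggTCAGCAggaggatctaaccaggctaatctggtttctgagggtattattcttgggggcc
Tulp1 (chr17:28365217-28365466, minus strand): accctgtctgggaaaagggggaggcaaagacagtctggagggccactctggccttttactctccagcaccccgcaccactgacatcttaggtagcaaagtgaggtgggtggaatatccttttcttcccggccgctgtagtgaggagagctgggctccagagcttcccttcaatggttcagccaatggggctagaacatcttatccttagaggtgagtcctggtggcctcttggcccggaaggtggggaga
Rbp3 (chr14:33953753-33954002, plus strand): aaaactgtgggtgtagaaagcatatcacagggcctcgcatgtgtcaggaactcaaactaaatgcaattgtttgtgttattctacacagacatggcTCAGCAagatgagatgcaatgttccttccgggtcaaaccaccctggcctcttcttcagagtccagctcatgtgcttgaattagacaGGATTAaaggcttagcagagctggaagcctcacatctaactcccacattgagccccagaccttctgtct
Rom1 (chr19:8929357-8929606, minus strand): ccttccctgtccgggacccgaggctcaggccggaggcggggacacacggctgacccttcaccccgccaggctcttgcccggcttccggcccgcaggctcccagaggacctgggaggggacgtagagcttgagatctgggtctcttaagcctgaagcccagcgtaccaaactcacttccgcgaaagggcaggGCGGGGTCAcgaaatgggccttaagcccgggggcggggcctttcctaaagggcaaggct
The Rom1 sequence held 1 match to the antioxidant response element core, which began 59 bases before the start. Rbp3 held the Nrl letters 155 bases and the Crx letters 69 bases before its start, and Nxnl1 held the Nrl letters 58 bases before its start. None of the 3 sets of letters was found in the Tulp1 sequence. RefSeq windows of 300 bases (250 before and 50 after the start) were at hand for 29 of the 38 members, 31 windows in all. The Crx letters stood in 13 of these 31 windows and in 7.06% of 32851 mouse windows, the Nrl letters in 9 of 31 and in 19.5%, and the antioxidant response element core in 3 of 31 (Cnga1, Cngb1 and Rom1) and in 12.4%. A match is a description of the letters and not evidence of binding.

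Total counts ranged from 16548349 to 50543008 per library. The vector transcript, human NFE2L2, lay between 4577 and 8711 CPM (counts scaled to a library of 1000000) in 6 Nrf2 libraries and between 1.12 and 175 CPM in 6 control libraries. The libraries labelled control 3 and Nrf2 4 lay between these ranges, both at 1163 CPM, and whether either label is wrong, or the samples were mixed, could not be settled from the files. For this reason the counts of members called and the 4 members past the threshold are also given without mice 3 and 4. The sums, the overlap of values and the other lists are given with all mice only. Defining RPE markers were abundant in both groups, with the 15 markers summing to a median of 29748 CPM in control eyes and 29158 CPM in Nrf2 eyes. Nrf2 2, which recurs below, had the fewest counts of all libraries. Eyes of the same mouse were paired in the test.

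Of the 38 members, 37 passed the filter on low counts and 1 (Cabp4) did not. In the paired edgeR test, 3 of the 37 were lower in Nrf2 eyes (Nxnl1, Tulp1 and Rbp3) and 1 was higher (Rom1). Over all 16289 genes tested, 0.491% were lower and 2.94% were higher at the same adjusted p under 0.05. The members' median log2 fold change was -1.41, beside -0.04 for all genes tested, and 31 of the 37 had an estimate below 0. At an unadjusted p under 0.05, 17 members were lower and 3 higher, beside 7.49% and 10.7% of all genes tested. Thus estimates below 0 were common among the members, while few of them passed the adjusted threshold.

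The number that passed depended on the test. Without the pairing (no replicate block) 12 members were lower (Nxnl1, Tulp1, Rbp3, Aipl1, Gngt1, Guca1a, Impg1, Pde6g, Prph2, Rcvrn, Rp1l1 and Sag) and 1 was higher, beside 1.37% and 5.38% of all genes tested. DESeq2, with the pairing, placed 17 members lower (those 12 and Crx, Gnat1, Gucy2e, Impg2 and Nxnl2) and 2 (Rdh12 and Rom1) higher, beside 4.33% and 7.6% of all genes. With limma voom and sample quality weights, 18 were lower (those 17 and Nr2e3) and 3 (Rdh12, Rgs9 and Rom1) were higher, beside 6.17% and 9.73%. Without mice 3 and 4, edgeR called 2 members lower (Nxnl1 and Tulp1) and 2 higher (Rom1 and Rdh12). Beside these, 745 of all 16563 genes tested were called, 253 of them lower. In each of the tests on all mice Nxnl1, Tulp1 and Rbp3 were among the members lower and Rom1 was among those higher. Overlap of the 7 control and the 7 Nrf2 values was judged in CPM on library totals, without the normalization of the test. On that scale they did not overlap for 3 members, all lower (Guca1a, Rp1l1 and Tulp1), and for 0.755% of all genes tested. In the higher direction they did not overlap for 0 members and 1.04% of all genes.

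**Figure D1:**
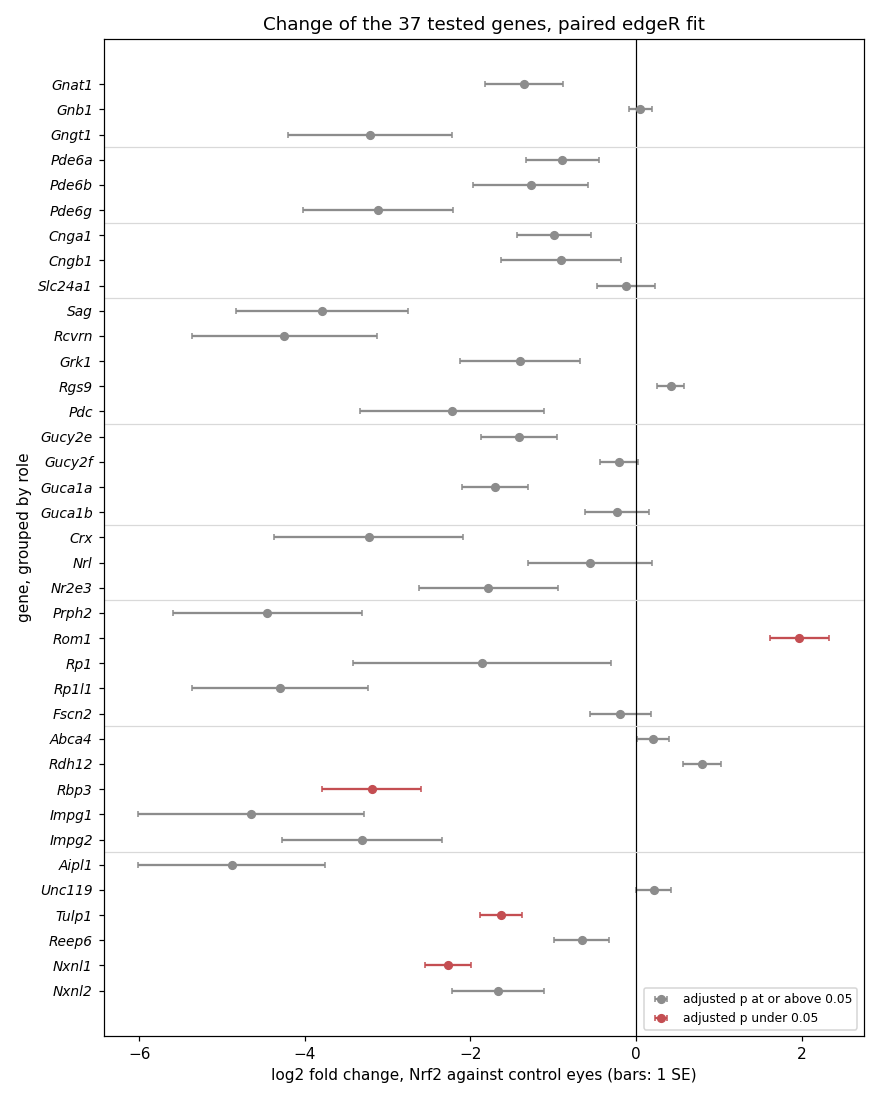
Log2 fold change of each of the 37 tested genes (Nrf2 against control eyes, x axis) from the paired edgeR test, with genes grouped by role on the y axis and bars of 1 standard error. Nxnl1, Tulp1 and Rbp3 lie below 0 and Rom1 above it with an adjusted p under 0.05 (red); 31 of the 37 estimates are below 0.

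The heat map of members by library shows how uneven the control eyes were. Control eyes 1 and 4 were the 2 highest control libraries for 29 of the 38 members, and for 3632 of the 16289 genes tested (22.3%). Among 20 members the highest control eye exceeded the lowest by at least 10-fold, beside 13.4% of all genes tested. Only 7 members varied by less than 3-fold among control eyes (Gnb1, Rgs9, Abca4, Gucy2f, Unc119, Gucy2e and Reep6), beside 65.6% of all genes. Among the Nrf2 eyes, Nrf2 2 was the highest for 21 of the 38 members, beside 33.5% of all genes tested.

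**Figure D2:**
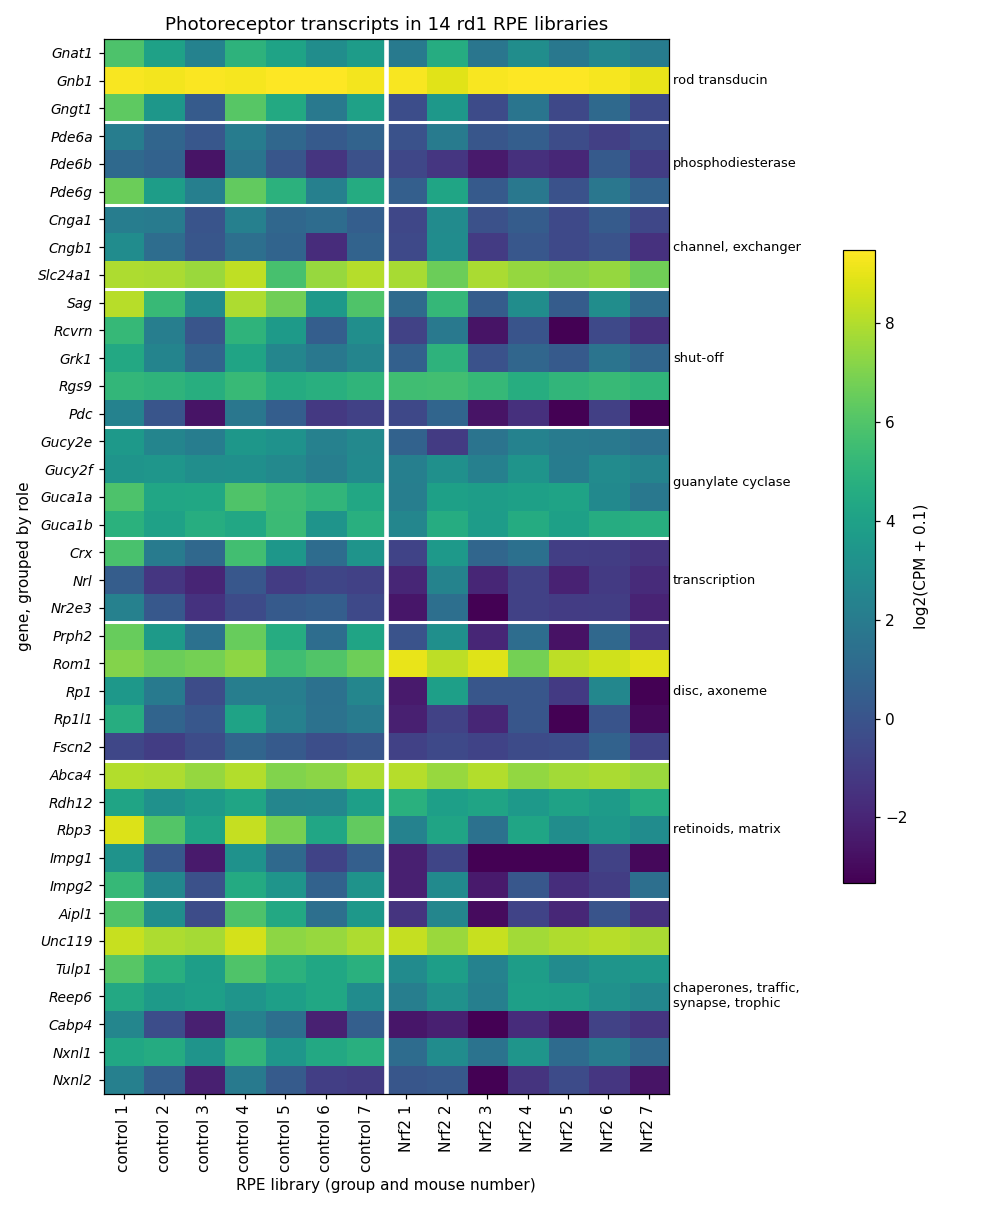
Level of each of the 38 genes (rows, grouped by role) in the 14 libraries (columns, named by group and mouse), coloured by log2(CPM + 0.1). Control 1 and control 4 are the brightest control columns for most rows, Nrf2 2 is the brightest Nrf2 column for 21 rows, and Gnb1, Unc119, Abca4, Slc24a1 and Rom1 are bright in all 14 columns.

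Control eyes 1 and 4 also led for many markers of other retinal cells. They were the 2 highest controls for 12 of 12 cone markers, 9 of 11 bipolar cell markers, 11 of 12 amacrine, horizontal and ganglion cell markers and 5 of 8 Müller glia markers, but for 0 of 15 RPE markers. At the low end the lists differed. Control 3, whose label could not be settled, was the lowest control for 24 of the 38 members and 8 of 12 cone markers. It was the lowest for 3 of 11 bipolar cell markers, 4 of 12 amacrine, horizontal and ganglion cell markers and 0 of 8 Müller glia markers. Over all 16289 genes tested it was the lowest control for 1774. The 12 cone markers summed to between 103 and 1353 CPM in control eyes (median 421) and between 72.6 and 198 CPM in Nrf2 eyes (median 93.2), and the sum was lower in the Nrf2 eye of 7 of 7 mice. The RPE marker sum ranged from 20338 to 42060 CPM in control eyes and from 24923 to 34763 CPM in Nrf2 eyes, and it was lower in the Nrf2 eye of 3 mice. No cone, bipolar, Müller glia or RPE marker was at 0 in all libraries of a group. The bipolar sum ranged from 503 to 2165 CPM in control eyes and from 858 to 1781 CPM in Nrf2 eyes. The amacrine, horizontal and ganglion sum ranged from 261 to 1063 CPM and from 344 to 625 CPM, and the Müller glia sum from 1496 to 4101 CPM and from 2454 to 2978 CPM. The Nrf2 eye had the lower bipolar sum in 5 mice and the lower Müller glia sum in 6. For the amacrine, horizontal and ganglion sum it was lower in 2 mice only. In each library most of the bipolar sum came from Trpm1 and most of the Müller glia sum from Dkk3 and Car14. Slc6a9 gave most of the amacrine, horizontal and ganglion sum except in control 1, control 4 and Nrf2 2. These sums thus follow few genes. For Trpm1, Dkk3 and Car14, control eyes 1 and 4 were not the 2 highest controls. Which cells these transcripts came from was not tested. The part of other retinal cells in the members' differences was not tested.

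Among the rod-restricted genes other than Slc24a1, which was far more abundant than the rest, the summed level was lower in the Nrf2 eye of most mice. The 9 genes summed to between 14.03 and 261 CPM in control eyes (median 59.0) and between 7.29 and 80.6 CPM in Nrf2 eyes (median 8.75). The sum was lower in the Nrf2 eye of 6 mice and higher in that of mouse 2, at 80.6 against 51.6 CPM. With Slc24a1 included, the 10 genes had median sums of 287 CPM in control eyes and 192 CPM in Nrf2 eyes, and the Nrf2 eye was lower in 5 mice. For the 26 genes shared with cones or other sites the median sums had the opposite order. They were 692 CPM in control eyes and 763 CPM in Nrf2 eyes, and the Nrf2 eye was lower in 3 mice. Within this sum, Rom1 alone had medians of 99.9 CPM in control eyes and 378 CPM in Nrf2 eyes. Of the 25 shared genes tested, 21 had an estimate below 0. Over all 38 members, the median paired difference on the log2 CPM scale was -3.24, -0.19, -0.79, -2.004, -1.77, -0.39 and -1.72 in mice 1 to 7. It was farthest from 0 in mouse 1, followed by mouse 4, the mice with the highest control eyes. When mice 1 and 4 were left out, the members' median log2 fold change was -0.81.

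**Figure D3:**
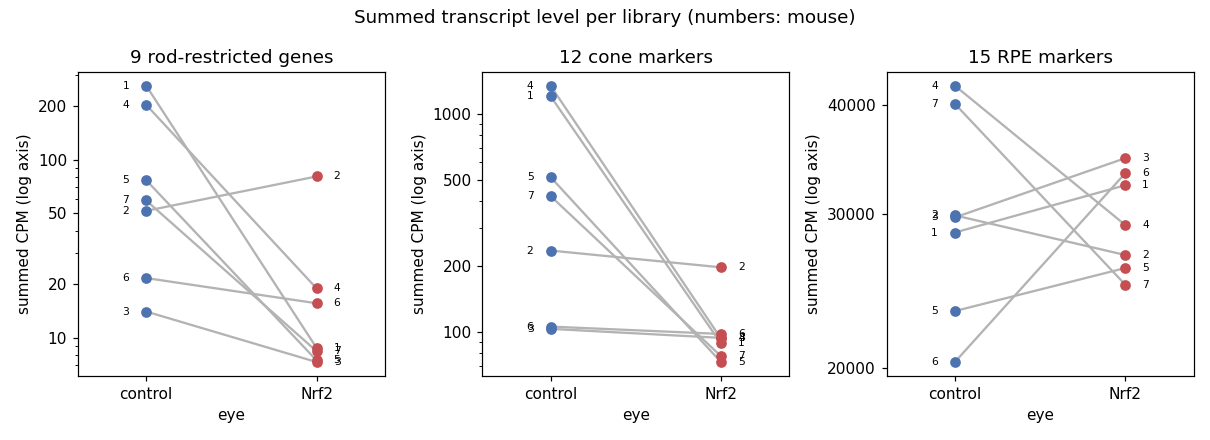
Summed CPM (log axes) of the 9 rod-restricted genes without Slc24a1, of 12 cone markers and of 15 RPE markers in the control eye and the Nrf2 eye of each mouse, with a line joining the eyes of a mouse and its number beside each point. The Nrf2 eye is the higher one for mouse 2 only in the rod panel, the lower one for all 7 mice in the cone panel, and the lower one for 3 mice in the RPE panel.

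Rod transducin is assembled from Gnat1 (alpha), Gnb1 (beta) and Gngt1 (gamma), and 0 of these 3 subunits passed the threshold in the paired edgeR test (2 had an unadjusted p under 0.05). Gnat1 stood at 59.2, 16.2, 4.99, 31.4, 16.98, 7.75 and 13.4 CPM in control eyes 1 to 7 and at 3.82, 23.99, 3.14, 7.72, 3.45, 5.90 and 4.08 CPM in Nrf2 eyes 1 to 7. The Nrf2 eye was the lower one in 6 mice and the higher one in mouse 2, and the groups overlapped. Its log2 fold change was -1.36 (adjusted p 0.175, SE 0.47), with an exact sign-flip permutation p of 0.0469. DESeq2 and voom placed Gnat1 and Gngt1 past the threshold, with adjusted p-values for Gnat1 of 0.0228 and 0.0177. Gngt1 ranged from 1.18 to 79.0 CPM in control eyes and from 0.575 to 11.4 CPM in Nrf2 eyes (log2 fold change -3.21, adjusted p 0.136, SE 0.99). Gnb1, the beta subunit that many G proteins share, was the most uniform member, at 655, 623, 683, 629.7, 703, 717 and 619.8 CPM in control eyes and 665, 478, 667, 715, 716, 629.6 and 539 CPM in Nrf2 eyes. The estimate was 0.05 (adjusted p 0.888, SE 0.14), and the sign turned to -0.079 on library totals alone. The subunits of this one complex had unlike levels in RPE libraries: per kilobase of annotated exon, the control medians were 153 CPM for Gnb1, 5.36 CPM for Gnat1 and 4.49 CPM for Gngt1.

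The rod phosphodiesterase has the catalytic subunits Pde6a and Pde6b and the inhibitory subunit Pde6g, and 0 of the 3 passed the threshold in the paired edgeR test (1 had an unadjusted p under 0.05). Pde6b, the gene mutated in rd1, was at 2.01, 1.54, 0.0605, 3.08, 0.969, 0.295 and 0.796 CPM in control eyes and at 0.572, 0.302, 0.0931, 0.245, 0.164, 1.14 and 0.396 CPM in Nrf2 eyes. These are small numbers of reads, from 2 to 87 counts in control libraries and from 3 to 26 in Nrf2 libraries, and the groups overlapped. The log2 fold change was -1.27 (adjusted p 0.374, SE 0.70). Pde6a was also scarce, between 1.03 and 4.20 CPM in control eyes and 0.437 and 3.93 CPM in Nrf2 eyes (log2 fold change -0.89, adjusted p 0.327, SE 0.44). Pde6g was the most abundant of the 3, with control values between 4.48 and 98.5 CPM and Nrf2 values between 0.849 and 18.6 CPM (log2 fold change -3.11, adjusted p 0.114, SE 0.90). It passed the threshold in the unpaired edgeR test, in DESeq2 and in voom, at adjusted p-values of 0.042, 5.36e-05 and 0.00389.

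The cyclic GMP-gated channel subunits Cnga1 and Cngb1 and the exchanger Slc24a1, which removes calcium from the rod outer segment, gave 0 of 3 genes past the threshold in edgeR, at an unadjusted p under 0.05, in DESeq2 and in voom alike. Slc24a1 was at 237, 235, 186, 302, 53.2, 181 and 269 CPM in control eyes and at 224, 98.6, 230.2, 179, 151, 176 and 105 CPM in Nrf2 eyes. Although it is described as a rod gene, its lowest value in any of the 14 libraries was far above the highest value of Cnga1 (7.25 CPM) or Cngb1 (7.49 CPM). Its log2 fold change was -0.12 (adjusted p 0.892, SE 0.35) and the sign was positive in voom (0.28) and without mouse 2 or mouse 7 (0.08 in both). Cnga1 and Cngb1 had log2 fold changes of -0.99 (adjusted p 0.284, SE 0.44) and -0.90 (adjusted p 0.542, SE 0.72), and the highest Nrf2 value of each, in Nrf2 2, exceeded every control value.

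The shut-off genes comprise Sag (arrestin), Grk1 (the kinase that marks light-activated pigment), Rcvrn (recoverin, which restrains that kinase), Rgs9 (which speeds the return of transducin to its inactive form) and Pdc (phosducin, which binds transducin beta and gamma subunits). In the paired edgeR test 0 of the 5 passed the threshold, and 3 (Sag, Rcvrn and Rgs9) had an unadjusted p under 0.05. Sag was at 273, 39.6, 7.26, 239, 106, 11.6 and 61.6 CPM in control eyes and at 2.01, 36.6, 1.24, 7.72, 1.23, 7.70 and 2.06 CPM in Nrf2 eyes. The Nrf2 eye was lower in 7 of 7 mice, yet barely so in mouse 2, and the groups overlapped. The log2 fold change of Sag was -3.79 (adjusted p 0.0947, SE 1.04) with an exact sign-flip permutation p of 0.0156, the smallest that 7 pairs allow. Sag passed the threshold in the unpaired edgeR test, DESeq2 and voom (adjusted p 0.0332, 1.59e-06 and 0.00258), and without mice 1 and 4 its log2 fold change was -2.70 (adjusted p 0.196). Rcvrn had a similar profile and passed in the same tests, with a control median of 8.01 CPM against 0.481 CPM (log2 fold change -4.25, adjusted p 0.0841, SE 1.11). Grk1 and Pdc had log2 fold changes of -1.40 (adjusted p 0.348, SE 0.72) and -2.22 (adjusted p 0.337, SE 1.11). Rgs9 lay between 23.4 and 39.1 CPM in control eyes and between 25.4 and 48.9 CPM in Nrf2 eyes (log2 fold change 0.42, adjusted p 0.218, SE 0.16). The Nrf2 eye was higher in 5 mice. Rgs9 passed the threshold in voom (adjusted p 0.0250) and without mouse 4 (log2 fold change 0.56, adjusted p 0.0228). It did not pass without mice 3 and 4 (log2 fold change 0.51, adjusted p 0.0877).

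Guanylate cyclases Gucy2e and Gucy2f make cyclic GMP, and Guca1a and Guca1b activate them when calcium falls. In the paired edgeR test 0 of the 4 passed the threshold and 2 (Guca1a and Gucy2e) had an unadjusted p under 0.05; the same 2 passed in DESeq2 and voom. Guca1a lay between 18.8 and 62.4 CPM in control eyes (median 34.8) and between 3.42 and 17.4 CPM in Nrf2 eyes (median 13.7). On library totals the groups did not overlap, and the nearest values were 18.8 CPM in control 2 and 17.4 CPM in Nrf2 5. Dividing by the TMM normalization factors of these libraries, 1.025 and 0.934, reverses that order. The log2 fold change was -1.70 (adjusted p 0.0566, SE 0.40) and the exact sign-flip permutation p was 0.0156. Without mouse 4 the adjusted p of Guca1a was 0.0479, and without mice 3 and 4 it was 0.0575. Its neighbour Guca1b lay between 9.64 and 42.0 CPM and between 5.72 and 26.3 CPM, with medians of 25.2 and 23.6 CPM (log2 fold change -0.23, adjusted p 0.794, SE 0.39). Gucy2e had medians of 6.54 and 2.95 CPM (log2 fold change -1.41, adjusted p 0.147, SE 0.45) and was lower in 7 of 7 mice, whereas Gucy2f had medians of 8.01 and 5.38 CPM (log2 fold change -0.20, adjusted p 0.675, SE 0.23). Differences between the genes of a pair were not tested.

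Of the 3 transcription factors, Crx acts in rods and cones, Nrl sets rod fate, and Nr2e3 works with Nrl to hold cone genes off in rods. In the paired edgeR test 0 of the 3 passed the threshold and Crx alone had an unadjusted p under 0.05; Crx passed in DESeq2, and Crx and Nr2e3 in voom. Crx was at 56.6, 3.87, 1.91, 48.2, 10.8, 2.19 and 9.70 CPM in control eyes and at 0.504, 12.1, 1.80, 2.57, 0.411, 0.394 and 0.277 CPM in Nrf2 eyes. Control eyes 1 and 4 stood apart from the other 5, and mouse 2 went the opposite way from the other mice. The log2 fold change of Crx was -3.23 (adjusted p 0.183, SE 1.14). Nrl was scarce, with 5 to 51 counts in control libraries, at 1.27, 0.300, 0.151, 1.03, 0.387, 0.547 and 0.458 CPM in control eyes and 0.160, 5.20, 0.155, 0.449, 0.137, 0.350 and 0.198 CPM in Nrf2 eyes. The 5.20 CPM in Nrf2 2 was 86 counts, more than in any control library, and the log2 fold change of -0.55 (adjusted p 0.735, SE 0.75) turned to 0.68 without the pairing and to 0.060 without mice 1 and 4. Nr2e3 was at 4.89, 1.07, 0.272, 0.672, 1.13, 1.30 and 0.603 CPM in control eyes and at 0.0687, 2.42, 0, 0.449, 0.383, 0.394 and 0.138 CPM in Nrf2 eyes (log2 fold change -1.78, adjusted p 0.309, SE 0.84). Mouse 2 was again the exception to a lower Nrf2 eye. An annotated lincRNA, Gm15507, shares 61 exon bases with Nr2e3, 1.81% of its exon length, and reads there cannot be assigned to either.

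The structural genes held the 1 member that was higher in the paired edgeR test. Prph2 and Rom1 are related tetraspanins that assemble together at the rims of outer segment discs, Rp1 and Rp1l1 organize the axoneme, and Fscn2 bundles actin. Rom1 (ENSMUSG00000071648, chr19:8927391-8929356 in GRCm38) was at 140.1, 99.0, 112, 157, 47.6, 63.9 and 99.9 CPM in control eyes and at 527, 297, 465, 112, 299, 378 and 478 CPM in Nrf2 eyes. It rose in 6 of 7 mice and was lower in the Nrf2 eye of mouse 4, so the groups overlapped. The library Nrf2 4 carried the least vector transcript of the Nrf2 group, and its label could not be settled. A link between vector transcript and Rom1 was not tested. The log2 fold change was 1.97 (adjusted p 0.0252, SE 0.36) and the exact sign-flip permutation p was 0.0312. Leaving out mouse 4 gave a log2 fold change of 2.29 (adjusted p 0.00119), leaving out mice 3 and 4 gave 2.30 (adjusted p 0.00356), and leaving out any other single mouse gave adjusted p-values from 0.0536 to 0.0960.

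Prph2, the partner of Rom1, had the opposite sign. It lay between 2.32 and 90.5 CPM in control eyes (median 18.04) and between 0.0548 and 8.34 CPM in Nrf2 eyes (median 0.870), with a log2 fold change of -4.45 (adjusted p 0.0783, SE 1.14) and a lower Nrf2 eye in 7 of 7 mice. Per kilobase of exon the control medians were 65.9 CPM for Rom1 and 6.01 CPM for Prph2, and the Nrf2 medians were 249 CPM and 0.290 CPM. The Rp1l1 values of the groups did not overlap, with medians of 3.91 and 0.155 CPM, and the adjusted p was 0.0696 (log2 fold change -4.30, SE 1.07). Prph2 passed in the unpaired edgeR test, DESeq2 and voom (adjusted p 0.0319, 1.11e-07 and 0.00246), as did Rp1l1 (0.0176, 2.23e-06 and 0.00635). Rp1 and Fscn2 had log2 fold changes of -1.86 (adjusted p 0.559, SE 1.56) and -0.19 (adjusted p 0.825, SE 0.37).

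**Figure D4:**
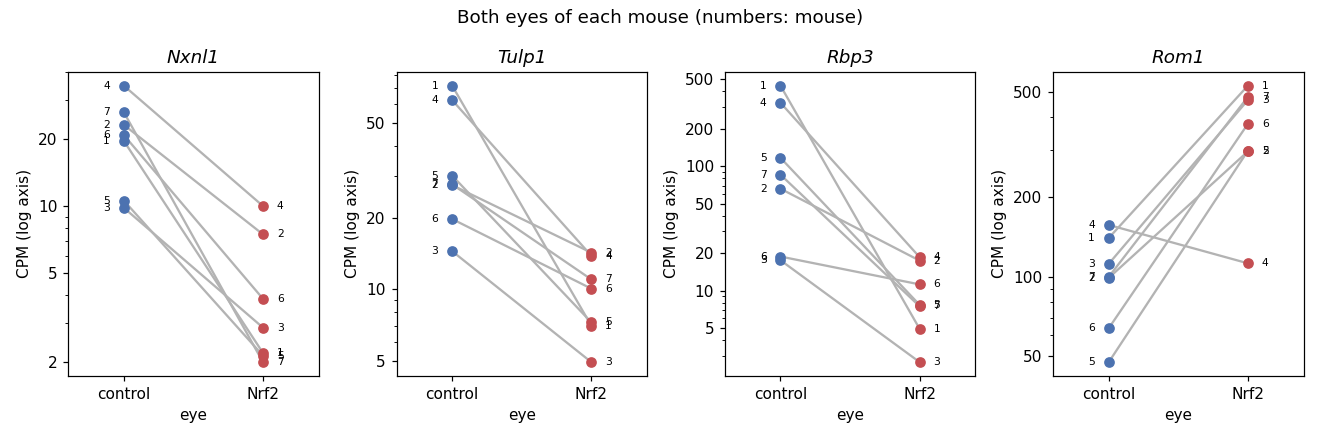
CPM (log axes) of Nxnl1, Tulp1, Rbp3 and Rom1 in the control eye (blue) and the Nrf2 eye (red) of each mouse, with a line joining the eyes of a mouse and its number beside each point. All 7 lines fall for Nxnl1, Tulp1 and Rbp3, and 6 of 7 rise for Rom1, with mouse 4 falling.

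Genes of retinoid handling and the matrix around photoreceptors gave 1 of 5 past the threshold. Rbp3 (ENSMUSG00000041534, chr14:33954003-33964216 in GRCm38) encodes the retinoid-binding protein that photoreceptors secrete into the space between them and the RPE. It was at 444, 66.0, 17.6, 324, 117, 18.8 and 85.6 CPM in control eyes and at 4.95, 17.5, 2.67, 18.6, 7.70, 11.2 and 7.50 CPM in Nrf2 eyes. The Nrf2 eye was lower in 7 of 7 mice, by much more in mice 1 and 4 than in mouse 6, and the groups overlapped slightly. Its log2 fold change was -3.19 (adjusted p 0.0275, SE 0.60). Without mice 1 and 4 it was -2.49 (adjusted p 0.0329), without mice 3 and 4 it was -3.17 (adjusted p 0.0663), and leaving out mouse 2, 3, 5 or 7 alone raised the adjusted p to between 0.0502 and 0.103.

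Abca4, the retinoid flippase of the outer segment that the RPE also expresses, was at 257, 240.0, 174, 255, 133, 154 and 237 CPM in control eyes and at 264, 182, 261, 167, 212, 228 and 186 CPM in Nrf2 eyes. The ranges overlapped widely (log2 fold change 0.20, adjusted p 0.618, SE 0.20). Rdh12, a retinol dehydrogenase, was higher in the Nrf2 eye of 6 of 7 mice, with medians of 12.4 and 16.8 CPM (log2 fold change 0.80, adjusted p 0.110, SE 0.23); it passed the threshold in DESeq2 and voom (adjusted p 0.0166 and 0.00925) and when mice 3 and 4 were left out (adjusted p 0.0398). The matrix proteoglycan genes Impg1 and Impg2 had control medians of 1.37 and 9.55 CPM and Nrf2 medians of 0.0198 and 0.394 CPM. Both had an adjusted p of 0.117, with log2 fold changes of -4.65 (SE 1.36) for Impg1 and -3.31 (SE 0.97) for Impg2. Impg1 passed in the unpaired edgeR test, DESeq2 and voom (adjusted p 0.0417, 7.7e-05 and 0.00678), and Impg2 in DESeq2 and voom (0.00014 and 0.0205).

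The last group, of chaperones, traffic, synapse and trophic genes, held 7 members, of which 6 were tested and 2 were lower. Nxnl1 (ENSMUSG00000034829, chr8:71560555-71566601 in GRCm38) encodes a thioredoxin-like protein, a short form of which rods secrete in support of cones. It was at 19.7, 23.3, 9.86, 34.9, 10.6, 20.9 and 26.5 CPM in control eyes and at 2.20, 7.49, 2.86, 10.05, 2.14, 3.85 and 2.00 CPM in Nrf2 eyes. Every Nrf2 eye was below its fellow eye, and the groups overlapped only through control 3 and Nrf2 4. The log2 fold change was -2.27 (adjusted p 0.00936, SE 0.28, exact sign-flip permutation p 0.0156). Nxnl1 passed the threshold of 0.05 when any 1 mouse was left out (adjusted p 0.00394 to 0.0383), without mice 3 and 4 (log2 fold change -2.55, adjusted p 0.0103) and without mice 1 and 4 (log2 fold change -2.27, adjusted p 0.0209). Unlike most members, Nxnl1 was not highest in control eyes 1 and 4 together, and its control values spanned 3.54-fold. The related gene Nxnl2 had medians of 1.19 and 0.306 CPM (log2 fold change -1.67, adjusted p 0.160, SE 0.56).

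Tulp1 (ENSMUSG00000037446, chr17:28351515-28365222), needed for protein traffic to the outer segment, was at 71.9, 27.4, 14.5, 62.5, 30.1, 19.7 and 27.6 CPM in control eyes and at 7.03, 14.3, 4.94, 13.8, 7.26, 10.1 and 11 CPM in Nrf2 eyes. The lowest control value, 14.5 CPM in control 3, was just above the highest Nrf2 value, 14.3 CPM in Nrf2 2. Tulp1 had a log2 fold change of -1.63 (adjusted p 0.0146, SE 0.25). It was -1.61 without mice 3 and 4 (adjusted p 0.0439) and -1.27 without mice 1 and 4 (adjusted p 0.0167), and leaving out mouse 3, 5 or 7 alone gave adjusted p-values of 0.0505, 0.0569 and 0.0528.

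Aipl1, a chaperone for the phosphodiesterase, had the lowest estimate of all members, with medians of 11.5 and 0.275 CPM (log2 fold change -4.88, adjusted p 0.0559, SE 1.13). It passed in the unpaired edgeR test, DESeq2 and voom (adjusted p 0.0278, 4.64e-09 and 0.0017) and without mouse 2 (adjusted p 0.0375). Its control eyes spanned 87.8-fold, and without mice 1 and 4 the estimate was -3.52 (adjusted p 0.130). Reep6, a membrane traffic protein of rods, had medians of 14.7 and 8.70 CPM (log2 fold change -0.65, adjusted p 0.342, SE 0.33). Unc119, a carrier of lipid-modified proteins in many tissues, was at 334, 241, 213, 401, 159, 179.9 and 239.7 CPM in control eyes and at 333, 187, 336, 213, 247, 277 and 230.1 CPM in Nrf2 eyes, with full overlap (log2 fold change 0.21, adjusted p 0.627, SE 0.21). Cabp4, a calcium-binding protein of the photoreceptor synapse, did not pass the filter of the main test. It held 3 to 229 counts in control libraries and at most 15 in any Nrf2 library. The Nrf2 eye was lower in 6 of 7 mice (exact sign-flip permutation p 0.0312). Where Cabp4 was tested, in 4 of the alternatives, the adjusted p was 0.138 or higher, with log2 fold changes between -3.36 and -2.93. Its medians were 1.35 and 0.121 CPM, and its exons share 131 bases with Gpr152 on the opposite strand.

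The spread among control eyes was set beside the difference between groups for the 37 tested members. The members with little spread among control eyes included all 6 with an estimate above 0 (Gnb1, Unc119, Abca4, Rgs9, Rdh12 and Rom1), none of which spanned more than 3.30-fold. The 11 members with the lowest estimates, -3.11 or lower, spanned at least 22.01-fold among control eyes. Nxnl1, Guca1a and Tulp1 were lower in Nrf2 eyes with control spans of 3.54-fold, 3.32-fold and 4.97-fold. The control values enter both the spread and the fold change, so these quantities are linked by construction. Across genes, which are not independent of each other and share the 14 libraries, this is a description and was not tested.

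**Figure D5:**
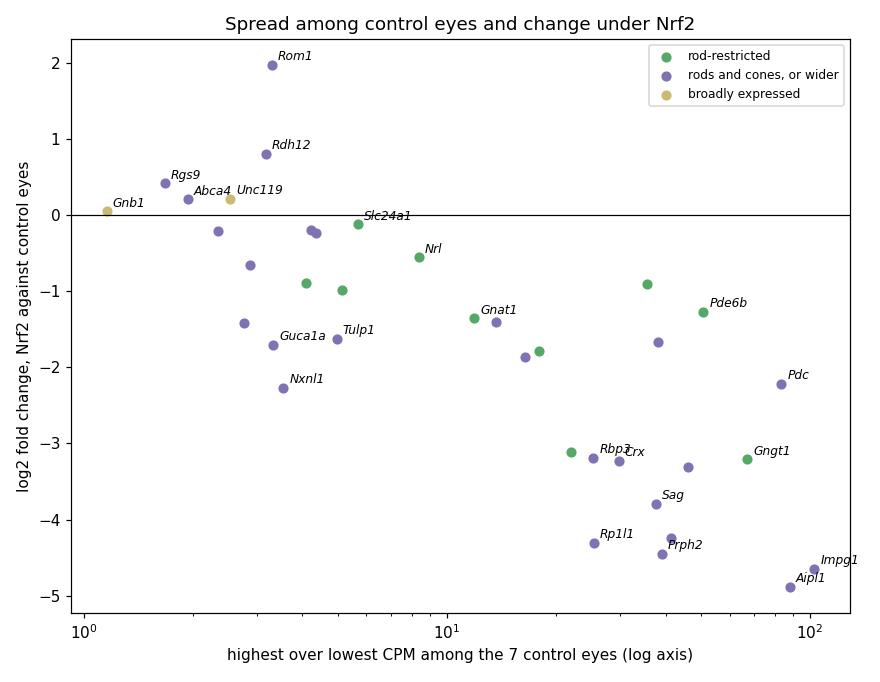
Log2 fold change of the 37 tested genes (y axis) against the ratio of the highest to the lowest CPM among the 7 control eyes (x axis, log scale), coloured by class. The genes above 0 lie at ratios of 3.30 or less, and Rbp3, Sag, Prph2 and Aipl1 lie at ratios of 25.3 to 87.8, while Nxnl1, Guca1a and Tulp1 are lower at ratios of 3.32 to 4.97.

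Of 32 further photoreceptor genes, 29 were tested, and 1 was lower in the paired edgeR test (Cdhr1, an outer segment cadherin); 10 were lower and 0 higher in DESeq2, and 11 lower and 1 higher in voom. In all, 23 of the 29 estimates were below 0, with a median of -1.06. Cdhr1 lay between 37.7 and 121 CPM in control eyes and between 19.5 and 45.8 CPM in Nrf2 eyes, with a log2 fold change of -1.19 (adjusted p 0.0116, SE 0.17). Prom1, the most abundant of that list, did not pass (log2 fold change 0.25, adjusted p 0.789, SE 0.41). Among 12 cone markers, 2 were lower: the short-wavelength opsin Opn1sw (log2 fold change -5.12, adjusted p 0.047, SE 1.13) and the cone transducin subunit Gnat2 (-1.69, adjusted p 0.0294, SE 0.32). The most abundant cone marker, Arr3 (cone arrestin), had a log2 fold change of -4.73 (adjusted p 0.0543, SE 1.09). Without the pairing 6 cone markers were lower, in DESeq2 6 and in voom 9, with 0 higher in each. Thus the cone genes, like the members, had estimates mostly below 0, 11 of 12, with a median of -1.72. Over all genes tested, 0.491% were lower in the paired edgeR test, 1.37% without the pairing, 4.33% in DESeq2 and 6.17% in voom. The shares higher were 2.94%, 5.38%, 7.6% and 9.73%.

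Of the 10 bipolar, 8 amacrine, horizontal and ganglion cell and 8 Müller glia markers tested, 0 passed in the paired edgeR test, with medians of -1.19, -1.28 and -0.68 on the log2 scale. At an unadjusted p under 0.05, 1, 3 and 1 of them were lower, and 1 Müller glia marker was higher. DESeq2 called 2, 3 and 0 lower, and voom called 3, 3 and 2 lower. Glul was higher in the unpaired edgeR test, DESeq2 and voom, and Slc6a9 was higher in voom. The shares of all genes tested are those given above. The most abundant gene of each of these lists, Trpm1 (-0.02), Slc6a9 (0.37) and Dkk3 (-0.08), had an estimate nearer to 0 and does not stand for its list. Among 15 RPE markers, Rpe65, the isomerohydrolase of the visual cycle, was lower (log2 fold change -2.17, adjusted p 0.0199, SE 0.37), while the list's median was -0.15 and its most abundant gene, Ttr, was at 1.58 (adjusted p 0.104, SE 0.45). Rpe65 was also lower, and Ttr higher, in the unpaired edgeR test, DESeq2 and voom, and DESeq2 called Tyr, the melanin enzyme tyrosinase, higher as well. Of the endothelial, fibroblast, macrophage and microglia, lens and skeletal muscle markers tested, 0 passed in the paired edgeR test, with medians between -0.33 and 0.82; 3 had an unadjusted p under 0.05, DESeq2 called 2 (Csf1r lower and C1qa higher) and voom called 0. The most abundant of these were Plvap (-0.15), Dcn (0.54), Csf1r (-0.76), Cryaa (0.14) and Acta1 (-0.47).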

How the data were processed

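RNA from the RPE of 14 eyes (7 rd1 mice, 1 Nrf2 eye and 1 control eye each, all used here although the study's methods name fewer pairs) was amplified by the authors with a low-input kit that is not stated to keep strand, and sequenced in 2 runs that the labels do not assign to libraries. Per the study's methods, reads were aligned to mm10 with Ensembl release 91 and also quantified with Salmon (0.9.1 in the submitters' processing notes) and summed per gene. The deposited values are estimated counts, rounded to whole numbers and not normalized; Salmon as their source is an inference from which genes have a row, since no label states it. Of 34452 mouse gene rows, 34401 matched GENCODE M21 (GRCm38); the human NFE2L2 row was left out of the tests. At 16548349 counts or more per library, counting error bears mainly on members below 1 CPM.

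CPM were computed on library totals. Groups were compared in edgeR 4.0.16 under R 4.3.3 (quasi-likelihood F-test) on a model of mouse and group, TMM normalization, filterByExpr with a minimum count of 10, and Benjamini-Hochberg adjustment over 16289 genes. Standard errors were derived from the F statistic. Pairing followed the labels, which number eyes by animal; over 14932 genes, the deviations of the eyes of mice 1 to 7 from the group means correlated at 0.00, 0.08, 0.05, -0.34, 0.35, -0.18 and 0.16. For single members, signs of the 7 paired differences were also flipped in every way (exact permutation test, two-sided) on log2 CPM (prior count 2). The fitting code was first tested on simulated data. Alternatives were no replicate block, RLE normalization, library totals alone, DESeq2 1.42.0, limma 3.58.1 (voom with sample quality weights), other filters, thinned counts, a threshold of 0.01 and subsets of mice.

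Members and lists were chosen with earlier results of these data known. Described in full were members past the threshold, Pde6b, Gnat1, Nrl, Nr2e3, Sag, Crx, Gnb1, Unc119 and the 5 members with the highest mean CPM; from the other lists, genes past the threshold and the most abundant gene.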

Additional observations from a re-analysis of the deposited data

Results flagged for a closer look

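In each group of 7 libraries, the highest or lowest value of each member was compared with the rest by Dixon's ratio of its gap to the range. Of 76 groups examined, 20 held a library that stood apart, and 17 of the 20 were Nrf2 2. The figure of about 4 by chance holds only for independent groups. The members share the same 14 libraries, so 20 against 4 is not a test. There, Gnat1 was at 23.99 CPM, Gngt1 at 11.4 CPM, Pde6a at 3.93 CPM, Pde6g at 18.6 CPM, Cnga1 at 7.25 CPM and Cngb1 at 7.49 CPM. In the same library Sag was at 36.6 CPM, Rcvrn at 3.57 CPM, Grk1 at 30.8 CPM, Pdc at 1.69 CPM, Crx at 12.1 CPM, Nrl at 5.20 CPM and Nr2e3 at 2.42 CPM. Prph2 stood at 8.34 CPM, Rp1 at 14.8 CPM, Impg2 at 6.89 CPM and Aipl1 at 5.74 CPM there. Each of these was the highest Nrf2 value, and for Nrl it was 5.20 CPM against 0.449 CPM in the next library. Without mouse 2 the members' median log2 fold change was -1.74. Nrf2 2 was also the highest Nrf2 library for 10 of 12 cone markers, 10 of 11 bipolar markers and 0 of 15 RPE markers, and its part in the members' values was not tested.

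In control 1, Cngb1 was at 7.48 CPM against 2.47 CPM in the next control library, and Nr2e3 at 4.89 CPM against 1.30 CPM. In Nrf2 6, Fscn2 was at 1.53 CPM against 0.712 CPM in the next Nrf2 library.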

How the results depend on the processing

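The paired edgeR test called 559 genes. The number was 1100 with no replicate block, 1943 with DESeq2, 2590 with voom, 347 without a filter, 970 without mice 1 and 4 (chosen after seeing the data) and 56 at a threshold of 0.01, and 111 to 1998 when 1 mouse was left out, 111 without mouse 7 and 1998 without mouse 4. Members lower numbered 3, or 12 with no replicate block, 17 with DESeq2, 18 with voom, 2 without mice 3 and 4 (745 genes called), 4 with thinned counts (31 members tested), 1 at the threshold of 0.01 and 1 to 4 with 1 mouse left out (1 without mouse 3, 5 or 7). Members higher numbered 1, or 2 with DESeq2, 3 with voom, 2 without mice 3 and 4, 2 without mice 1 and 4, 0 at the threshold of 0.01 and 0 to 3 with 1 mouse left out, 3 without mouse 4 and 0 without any other. Without mouse 4, 1998 of all 16318 genes tested were called, 1020 of them lower. Without any other single mouse, 111 to 387 were called, 9 to 62 of them lower. Thinned counts gave 565 of 15152 genes, 86 of them lower. Without mice 1 and 4 there were 970 of 16291, with 351 lower.

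Over the 14 genes described in full, 203 values kept their direction and side of the threshold, 8 gained and 14 lost a call, and 10 changed sign. Those that changed sign were Nrl (0.68 with no replicate block, 0.060 without mice 1 and 4), Gnb1 (-0.039 without mice 3 and 4, -0.062 without mice 1 and 4, -0.079 on library totals alone, and -0.0058 to 0.13 with 1 mouse left out, below 0 without mouse 1 or 4) and Slc24a1 (0.28 in voom, and -0.40 to 0.082 with 1 mouse left out, above 0 without mouse 2 or 7). None of these was past the threshold. The cause of these changes was not tested. On library totals alone, chosen after seeing the data, the median of all genes was -0.17 and that of the members -1.55, and the same counts of members were called. Members below 1 CPM rest on few reads, and a missed threshold there does not show that values were alike.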
